A study of Mus musculus with 75 samples.

Results

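Polysomal RNA (Pol) was set against subpolysomal RNA (SubPol) in stimulated CD4 T cells of the mouse, by the read counts of 12428 genes in both fractions of the same cultures. The members are the 4 Pol and the 4 SubPol libraries labelled as stimulated with neither Tregs nor HHT, 8 of the 75 libraries of the study. They were paired by the number that leads each title, which names the mouse and, within a stimulation, the culture. The study asked, by its title, how regulatory T cells (Tregs) act on translation during CD4 T cell activation, and took ribosome-associated RNA in 2 ways from 9 mice. The sucrose fractionation described here is labelled SPEED and used 4 mice. In the RiboTag assay, with 5 other mice, RNA was precipitated with tagged ribosomes.

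Spleens and lymph nodes of mice labelled B6.SJL-PtprcaPepcb/BoyJ gave the effector T cells, defined as CD4+CD25-. The label names a strain that carries the CD45.1 allele, while the design text calls the mice C57/B6. They were cultured with magnetic beads coated with anti-CD3 and anti-CD28, which engage the T cell receptor and its costimulator. The same 4 mice gave untreated cultures and cultures with beads and Tregs, and mice 1 to 3 gave cultures with beads and HHT for 10 min. Unfractionated RNA (Input) was sequenced from each kind of culture. The labels' protocol adds that control cultures had the same total number of T cells as the cultures with Tregs, or in some cases effector cells sorted from Foxp3YFP-Cre mice. It does not say which were used here. The sources used here give no age, sex or culture time, no bounds of the collected gradient fractions, and no expansion of HHT or SPEED. The count tables name genes by Ensembl identifier only, and no table used here pairs these with gene names. The labelled cell type could therefore not be checked against its markers, and genes are described by class and by 4 identifiers. In such bulk RNA, fewer cells of a type and less RNA per cell cannot be told apart.

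An mRNA that is being translated carries several ribosomes in a row, and such polysomes sediment faster in sucrose than single ribosomes, ribosomal subunits and free ribonucleoprotein particles. RNA in the subpolysomal part of a gradient is therefore taken as untranslated or lightly translated. T cells leave rest with a large rise in protein synthesis, and the ratio of an mRNA between these fractions is a common measure of how far it takes part in it.

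The 8 libraries held between 1566501 and 4025127 counts. Pol totals of mice 1 to 4 were 2966693, 2490596, 4025127 and 1566501, and SubPol totals were 2622478, 2489938, 3256894 and 1741502, so that mouse 2 gave 2 libraries of nearly equal depth. No library was a copy of another of its fraction, since counts of any pair differed with a chi-square of 3.28 or more per degree of freedom. Scaling to library totals removes the share of all mRNA that lay on polysomes, so every ratio below is relative to the bulk of genes.

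The fractions differed in 5906 genes. In edgeR's quasi-likelihood test with the culture as a block, 3086 genes were higher in Pol (24.8% of the 12428 tested) and 2820 were higher in SubPol (22.7%), called lower below, at an adjusted p under 0.05 (n = 4 cultures). Of these, 1008 were at least 2-fold higher and 1188 at least 2-fold lower. The median log2 ratio over all genes was -0.01, the 25th and 75th percentiles were -0.68 and 0.58, and the 5th and 95th were -1.89 and 1.33. The balance of directions rests on the scaling. With library totals in place of TMM the median over all genes moved to -0.18, and 2383 genes were higher and 3567 lower. The 2383 were all among the genes higher with TMM, and all 2820 lower genes stayed lower.

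The cultures showed a similar order of genes. Over all 12428 genes, Pol and SubPol levels did not overlap between the 4 cultures of each in 43.6%, with Pol above in 2744 genes and below in 2674. Of the 3086 higher genes, 2987 had a positive ratio in each of the 4 cultures, and in 2545 the lowest Pol level was above the highest SubPol level of any mouse. Of the 2820 lower genes, 2723 were negative in each culture and 2317 did not overlap between the fractions. Both sets were called from these same cultures, so 1 sign in all 4 was favoured and is no separate evidence. Among 6900 well measured genes (log2 CPM averaging 5 or more over the 8 libraries, where CPM is a gene's count scaled to a fixed library total), 2701 were higher (39.1%) and 1825 lower (26.4%). Over these genes the ratio of a single culture had an SD across genes of 0.75, 0.70, 0.75 and 0.78 in mice 1 to 4. The SD of a gene's ratio over the 4 cultures was 0.21 at the median. Across the 6900 genes, which share libraries and are not independent replicates, each culture's ratio correlated with the mean of the other 3 with r of 0.914, 0.910, 0.871 and 0.922.

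**Figure D1:**
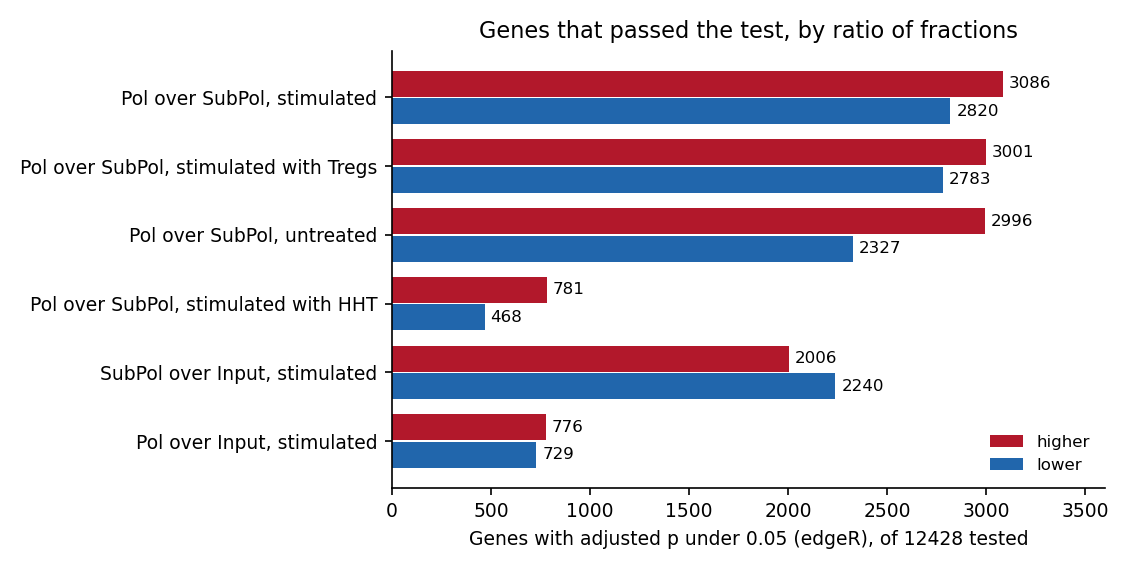
Bars give the number of genes that passed edgeR's test (adjusted p under 0.05, of 12428) as higher (red) or lower (blue) in each ratio of fractions, with 4 cultures per ratio and 3 for HHT. The 3086 higher and 2820 lower genes of stimulated Pol over SubPol stand beside 776 and 729 for Pol over Input and 781 and 468 for Pol over SubPol after HHT.

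Large ratios were rare among well measured genes. Of the 6900, 753 were at least 2-fold higher and 416 at least 2-fold lower in Pol. At least 4-fold differences were found for 3 genes that were higher and 6 that were lower, and the whole range ran from -2.47 to 2.18 on the log2 scale. Wider estimates came from the 5528 genes below that level, in which 42 genes were at least 4-fold higher and 274 at least 4-fold lower. Their median SE was 0.56, against 0.14 in the well measured genes. Small differences were thus less likely to pass the test there, and the ratios of genes that passed are less exact. Few genes were found in a single fraction. Of 10450 genes with at least 40 summed counts in SubPol, 3 had no count in any of the 4 Pol libraries and 19 had at most 3. Of 10020 such genes in Pol, 1 had none in SubPol and 3 had at most 3.

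ENSMUSG00000017390 had the highest ratio of the well measured genes with the same sign in every culture. Its level in Pol was 98.2, 105, 105 and 157 CPM in mice 1 to 4, and in SubPol 19.6, 21.5, 27.4 and 34.1 CPM. Every Pol library lay well above every SubPol library, and mouse 4 was the highest in both fractions. The log2 ratio was 2.18 (SE 0.25, adjusted p = 2.77e-08 in edgeR), a 4.53-fold difference. These levels rest on 215 to 427 counts in a Pol library and 55 to 98 in a SubPol library.

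ENSMUSG00000030872 was next. Its level in Pol was 106, 101, 90.4 and 106 CPM, and in SubPol 34.6, 25.6, 15.1 and 21.8 CPM. The Pol levels were close together, and the SubPol levels spread more widely, with mouse 1 highest and mouse 3 lowest. The log2 ratio was 2.08 (SE 0.26, adjusted p = 1.87e-07 in edgeR). Its Pol level was not past the test against Input (log2 0.33, adjusted p = 0.435), whereas its SubPol level fell by 1.75 on the log2 scale (adjusted p = 7.49e-06, edgeR).

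ENSMUSG00000097769 had the lowest ratio. Its level in Pol was 15.4, 13.2, 14.8 and 12.4 CPM, and in SubPol 65.3, 85.2, 87.1 and 73.8 CPM. The fractions were far apart in each culture, and Input lay between them at 32.4 ± 7.12 CPM (SD, n = 4). The log2 ratio was -2.47 (SE 0.25, adjusted p = 3.1e-09 in edgeR), from 17 to 60 counts in a Pol library.

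ENSMUSG00000085438 was the other gene at the low end. Its level in Pol was 33.3, 45.6, 46.1 and 35.8 CPM, and in SubPol 197, 191, 215 and 205 CPM. Input lay between them at 117 ± 7.81 CPM (SD, n = 4). The log2 ratio was -2.32, and its SE of 0.13 was the smallest of the 4 genes (adjusted p = 3.13e-13 in edgeR). The 4 genes stand at the ends of a continuous series: the third highest ratio was 2.06 and the third lowest -2.27. They were chosen as extremes of this ratio, so their values describe the range and are no separate evidence for it.

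**Figure D2:**
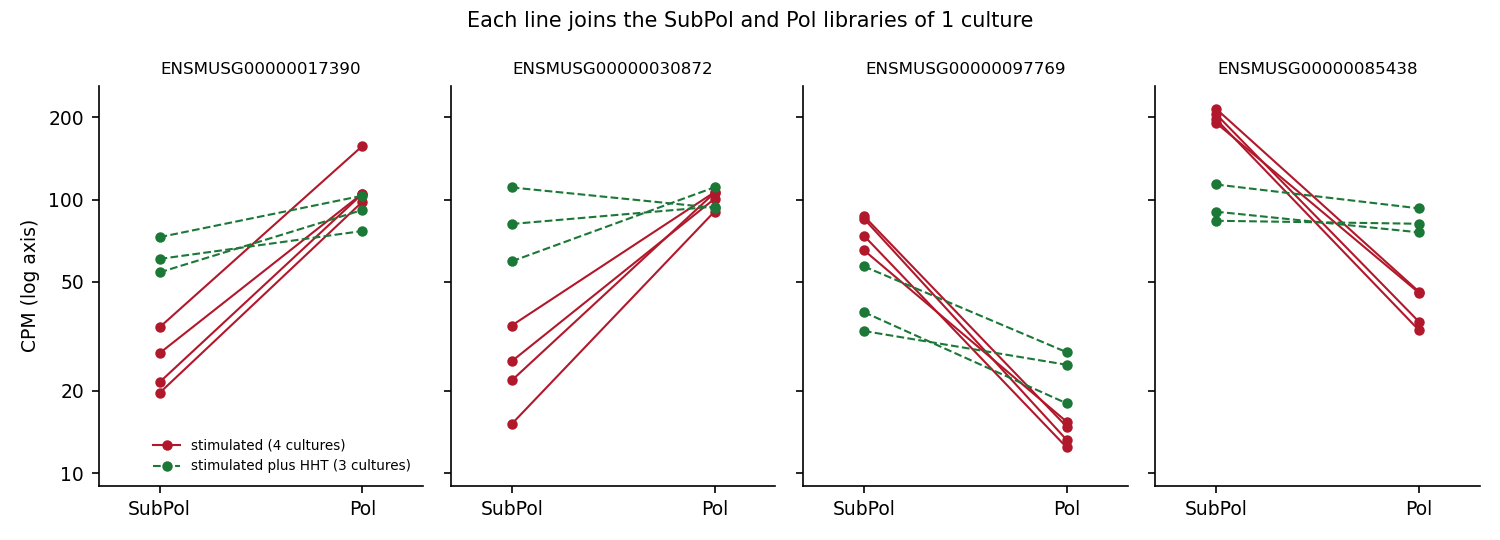
Each line joins the SubPol and the Pol library of 1 culture for 4 genes, in CPM on a log axis, in stimulated cultures (red, 4) and after HHT (green dashed, 3). ENSMUSG00000017390 and ENSMUSG00000030872 climb steeply and ENSMUSG00000097769 and ENSMUSG00000085438 fall steeply in every stimulated culture, and all lines are flatter after HHT.

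Fewer genes separated Pol from Input than SubPol from Input. Against Input, 776 genes were higher in Pol (6.24%) and 729 lower (5.87%), of which 4 and 134 were at least 2-fold. In SubPol against Input, 2006 genes were higher (16.1%) and 2240 lower (18%), 159 and 585 of them at least 2-fold (edgeR, n = 4 cultures per ratio). Over the 6900 well measured genes the SD of the log2 ratio was 0.31 for Pol over Input, 0.54 for SubPol over Input and 0.70 for Pol over SubPol. With library totals the counts against Input were 387 higher and 1003 lower for Pol, and 2587 higher and 1895 lower for SubPol. The near balance of directions in Pol over Input held in some fits and not in others. With the mouse as the block 698 genes were higher and 692 lower, and without a block 486 and 549. The size factors of DESeq2 in place of TMM gave 756 and 739, and DESeq2 itself 1132 and 909. With only these groups fitted 149 genes were higher and 567 lower. Without mouse 1, 2 or 4 the higher genes were 200, 152 or 215 and the lower genes 295, 351 or 424, and without mouse 3 they were 996 and 855.

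The genes that separated Pol from SubPol were set against Input in both fractions. These ratios share libraries, so the values are given side by side, with no test between them. The sets were chosen by Pol over SubPol, and Input is the unfractionated RNA, so medians on opposite sides of Input were favoured. The 753 well measured genes at least 2-fold higher in Pol had a median log2 ratio to Input of 0.27 in Pol and -0.96 in SubPol. The 416 at least 2-fold lower genes had medians of -0.59 in Pol and 0.65 in SubPol. At the median the first set was thus farther from Input in SubPol than in Pol, and the second set was about as far in both.

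The ratio varied with the level of the gene in Input. CPM is not corrected for gene length, so long and short genes share a level class. Of 819 genes with a log2 CPM of 8 or more in stimulated Input, 529 were higher in Pol (64.6%) and 97 lower (11.8%), and the median log2 ratio was 0.54. Of 1833 genes between 0 and 2, 35 were higher (1.91%) and 214 lower (11.7%), with a median of -0.66. The medians in between rose from -0.33 (2 to 4) through -0.07 (4 to 6) to 0.18 (6 to 8). The top class lay at 0.45, 0.55, 0.42 and 0.69 in cultures 1 to 4 and the class from 0 to 2 at -0.44, -0.48, -0.35 and -0.46. The top class was thus above the class from 0 to 2 in each culture, by amounts that differed between cultures. The 411 genes below 0 had a median of -0.56, above that of the next class, with 1 gene higher and 21 lower. In each single culture the median of these genes was about 0, so the -0.56 is a value of the fit only. With library totals the medians were 0.36 in the top class and -0.83 in the class from 0 to 2. Those of single cultures used a prior count of 2, which draws low genes towards 0. Genes passed the filter on the counts of a few libraries of any SPEED group. Scarce genes could thus enter through the fraction in which they were high, SubPol included, and the part of this was not tested. At a minimum count of 50 the class from 0 to 2 had a median of -0.45. With only stimulated Pol and SubPol fitted it had -0.95. Across the 12428 genes the ratio of the fit and the Input level correlated with r = 0.319 (Spearman's rho 0.315). With the ratios of cultures 1 to 4, r was 0.247, 0.285, 0.187 and 0.297. The points share libraries and depth, and genes are not independent replicates.

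**Figure D3:**
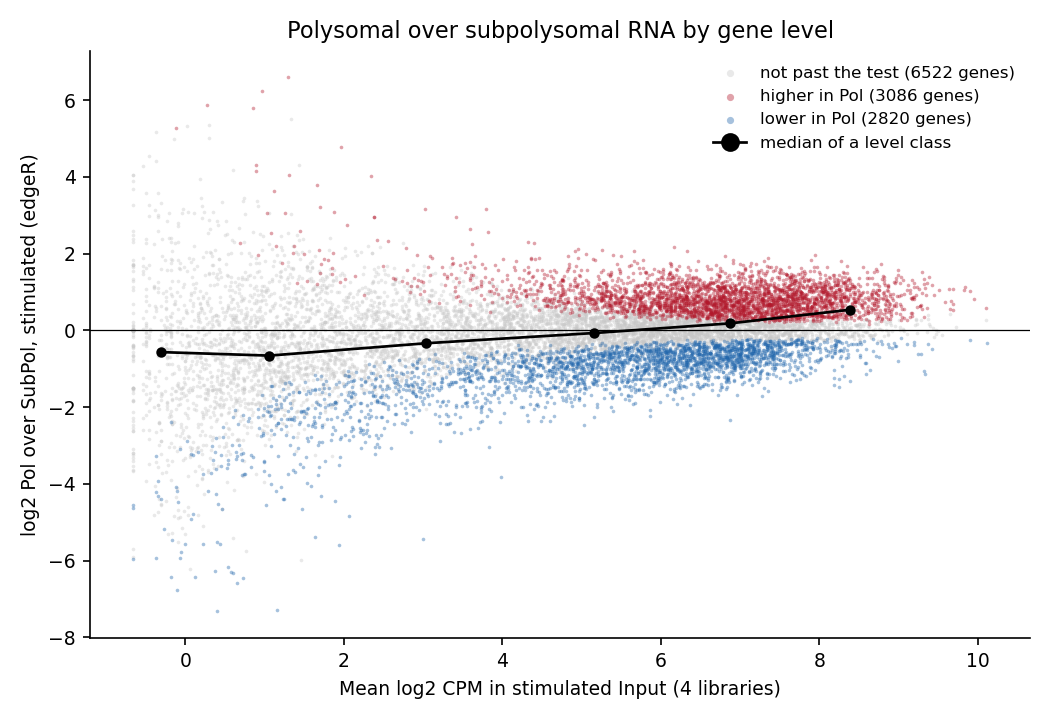
Each point is 1 of 12428 genes, with its mean log2 CPM in 4 stimulated Input libraries on the x axis and its log2 Pol over SubPol on the y axis, red or blue where it passed the test. The black line of medians starts at -0.56 below 0, is lowest at -0.66 in the class from 0 to 2 and runs up to 0.54 at 8 and over, and the spread is widest at low levels.

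In the 1 pair of libraries compared per fraction, the deepest and the shallowest, counts of abundant genes differed by less than the totals and counts of scarce genes by more. The Pol library of mouse 3 held 2.57 times the counts of that of mouse 4, but the summed counts of genes in the top class were 2.13 times as high and those in the class from 0 to 2 were 3.44 times as high. In SubPol, with 1.87 times the total, the factors were 1.66 and 2.45. The highest count of any gene was between 2260 and 3969 in these 8 libraries. Whether repeated reads were removed before counting is not given in the sources used here, and the part of this in the relation of the ratio to the level was not tested.

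The number of genes detected was compared at 1 depth. At the depth of the shallowest library the number of genes detected was 13091, 13205, 13150 and 13194 in Pol and 14043, 14188, 13781 and 14099 in SubPol. The groups did not overlap, and Pol was lower in 4 of 4 cultures. The means were 13160 ± 51.8 and 14028 ± 175 (SD, n = 4 each). An exact permutation test within mice, two-sided, gave p = 0.125, the smallest that 4 pairs allow, and 0.208 adjusted over 5 tests on library measures, so this design cannot pass 0.05. The share of counts held by the 100 highest genes was taken from the full libraries, at unequal depths. It was 7.02% ± 1.06 in Pol and 6.55% ± 0.784 in SubPol (exact permutation p within mice 0.125, adjusted 0.208). This share was higher in Pol in 4 of 4 cultures, by less than the spread between libraries of a fraction. In Pol it was 5.92% in the deepest library (mouse 3) and 8.46% in the shallowest (mouse 4).

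In untreated cells 2996 genes were higher in Pol (24.1%) and 2327 lower (18.7%), and 2195 and 1769 of them were called in the same direction in stimulated cells. These are 71.1% of the higher and 62.7% of the lower genes of stimulated cells, and 73.3% and 76.0% of those of untreated cells. In opposite directions, 44 genes passed both tests. No library is shared, and over the 6900 well measured genes the ratios correlated with r = 0.767, which describes genes in the same mice and is no test. With library totals, 2425 genes were higher and 2836 lower in untreated cells. The untreated SubPol library of mouse 3 stood apart with 12851 genes detected against 13556 to 13735 in the other 3.

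The ratio differed between stimulated and untreated cells for a minority of genes. In the test of the difference, 400 genes had a higher ratio after stimulation (3.22%) and 310 a lower one (2.49%), 45 and 107 of them by at least 2-fold (edgeR, n = 4 cultures per stimulation). The 400 genes had a median log2 ratio of 0.11 in untreated and 0.81 in stimulated cells. The 310 genes had medians of 0.21 and -0.75. At the median the first set thus went from near the bulk to the polysomal side. In the second, 190 of the 310 had a positive ratio in untreated cells and 56 in stimulated cells. Both sets were chosen by this difference, so medians that differ in its direction were favoured. The ratio of ENSMUSG00000085438, a gene chosen for its low stimulated ratio, moved from -1.53 to -2.32. This difference of -0.79 (SE 0.17, adjusted p = 0.00661 in edgeR) was -0.51 without mouse 1 (adjusted p = 0.104). The other 3 genes did not pass this test, with adjusted p from 0.213 to 0.885. For ENSMUSG00000017390 the untreated SubPol level was listed at 0 in mice 1 and 3, so its untreated ratio of 3.19 rests on few counts.

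The number of genes in this comparison rested on single cultures and on the pairing. It was 186, 195 or 330 in all without mouse 1, 2 or 4, 619 without mouse 3, and 323 without the culture as a block. Without the untreated culture of mouse 3 it was 563, with 413 higher and 150 lower. Library totals gave 321 higher and 460 lower, with the median over all genes at -0.12 in place of -0.06.

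With Tregs in the culture, Pol was above SubPol for 3001 genes (24.1%) and below it for 2783 (22.4%). Of these, 2604 (86.8%) and 2305 (82.8%) were called in the same direction without Tregs, and none in the opposite one. Over all 12428 genes, 24.8% were called higher and 22.7% lower without Tregs. With library totals the counts were 2316 higher and 3445 lower. The ratios of the 6900 well measured genes had a slope of 0.91 on those of stimulated cells (r = 0.956). No gene passed edgeR's test of the difference between the ratios with and without Tregs, with 418 genes at an unadjusted p under 0.05 of 12428, while DESeq2 called 12 and had 554 at an unadjusted p under 0.05. ENSMUSG00000017390 had a ratio of 2.42 with Tregs and ENSMUSG00000097769 one of -2.78, differences of 0.24 and -0.31 that did not pass edgeR's test (adjusted p = 1 for both).

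After HHT for 10 min the fractions were much more alike. Here 781 genes were higher in Pol (6.28%) and 468 lower (3.77%), with 3 cultures in place of 4, and 531 and 984 with library totals. The SD of a culture's log2 ratio over the well measured genes was 0.39, 0.37 and 0.51 in mice 1 to 3, against 0.70 to 0.78 in the stimulated cultures. The groups did not overlap. The slope on the stimulated ratio was 0.20 and r was 0.391. Of the 781 higher genes, 481 were called higher in stimulated cells (61.6%) and 44 lower (5.63%). Of the 468 lower genes, 281 were called lower (60.0%) and 65 higher (13.9%). Over all 12428 genes, 24.8% were called higher and 22.7% lower in stimulated cells.

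In the test of the difference, 1516 genes had a higher ratio after HHT (12.2%) and 1812 a lower one (14.6%), 638 and 567 of them by at least 2-fold (edgeR, n = 3 and 4 cultures). The 1516 genes had a median log2 ratio of -0.87 in stimulated cells and 0.03 after HHT, and the 1812 genes had 0.85 and -0.02. Both sets thus ended near the bulk of genes. Their choice used the stimulated libraries, so genes far from 0 there were favoured. Without mouse 1 the count was 2012 in place of 3328.

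All 4 named genes took part. They were chosen as extremes of the stimulated ratio, and the same stimulated libraries enter this difference, so a move towards 0 was favoured. ENSMUSG00000017390 went from 2.18 to 0.53 (difference -1.65, SE 0.36, adjusted p = 0.00101 in edgeR). Its Pol level after HHT was 103, 91.6 and 76.7 CPM in mice 1 to 3 and its SubPol level 72.9, 54.2 and 60.7 CPM. The SubPol level was thus above every stimulated SubPol library, and the Pol levels overlapped. ENSMUSG00000030872 went from 2.08 to 0.30 (difference -1.78, adjusted p = 0.000846 in edgeR). Its SubPol level after HHT was above Pol in mouse 2 (111 and 93.3 CPM) and below it in mice 1 and 3. ENSMUSG00000097769 went from -2.47 to -0.87 (difference 1.61, adjusted p = 0.00142 in edgeR). It was still lower in Pol after HHT (adjusted p = 0.0391 in edgeR). ENSMUSG00000085438 had the largest difference, 2.12 (SE 0.19, adjusted p = 3.1e-08 in edgeR). Its levels were 81.6, 75.9 and 92.8 CPM in Pol and 83.6, 90.3 and 114 CPM in SubPol. In this gene Pol was higher and SubPol lower than in every stimulated library.

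**Figure D4:**
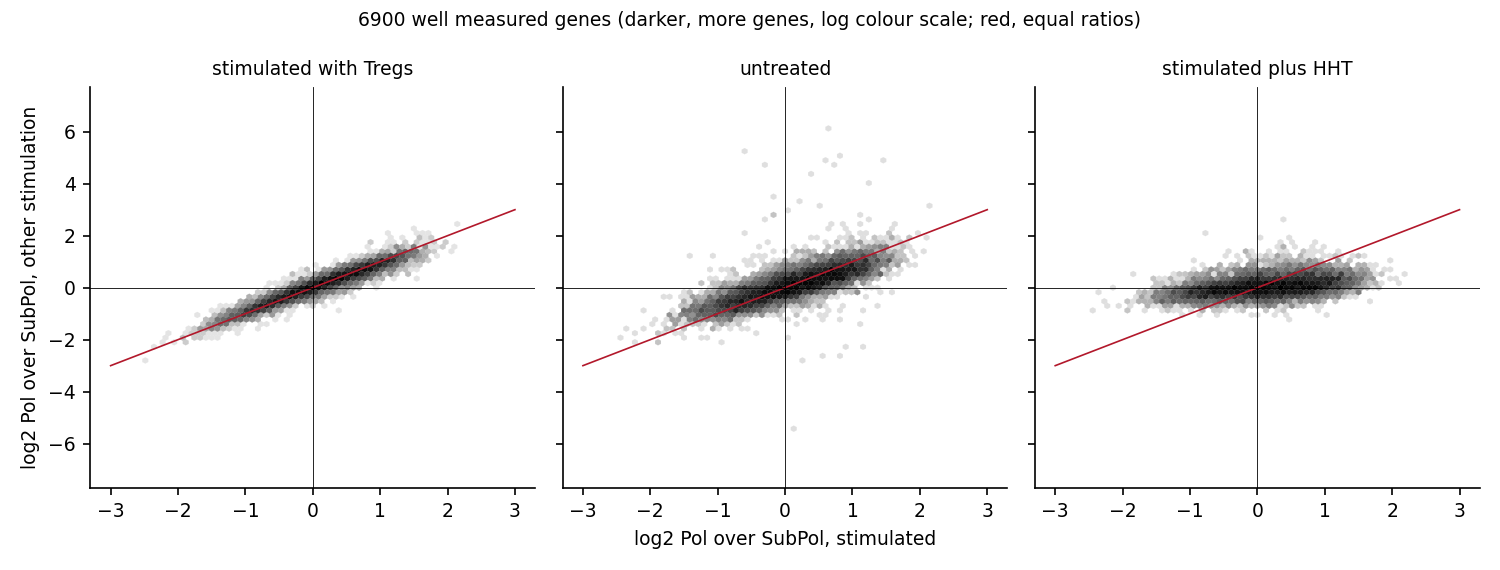
The log2 Pol over SubPol of 6900 well measured genes in stimulated cells (x axis) is set against the ratio with Tregs, in untreated cells and after HHT (y axis), with the line of equal ratios in red. The cloud follows the line with Tregs (slope 0.91), is broader in untreated cells (0.73) and lies nearly flat after HHT (0.20).

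The relation of the ratio to the level of the gene was compared between stimulations. As a measure in each culture, the median ratio of genes with an Input log2 CPM of 8 or more was taken minus that of genes between 2 and 4, with the Input of the same stimulation. It was 0.76, 0.96, 0.73 and 1.05 in the stimulated cultures of mice 1 to 4, and 0.35, 0.33, 0.16 and 0.36 in the untreated ones. The lowest stimulated culture was above the highest untreated one. The means were 0.87 ± 0.15 and 0.30 ± 0.10 (SD, n = 4 each; exact permutation test within mice, two-sided, p = 0.125, the smallest that 4 pairs allow, and 0.208 adjusted over the 5 tests). With Tregs the values were 0.83, 0.88, 0.67 and 0.93, a mean of 0.83 ± 0.11 (exact permutation p within mice 0.375, adjusted 0.375). After HHT they were 0.22, 0.36 and 0.10 (exact permutation p within mice 0.25, the smallest that 3 pairs allow, adjusted 0.312). No difference in this measure could pass 0.05 in this design, and the measure was chosen after the level classes had been seen.

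**Figure D5:**
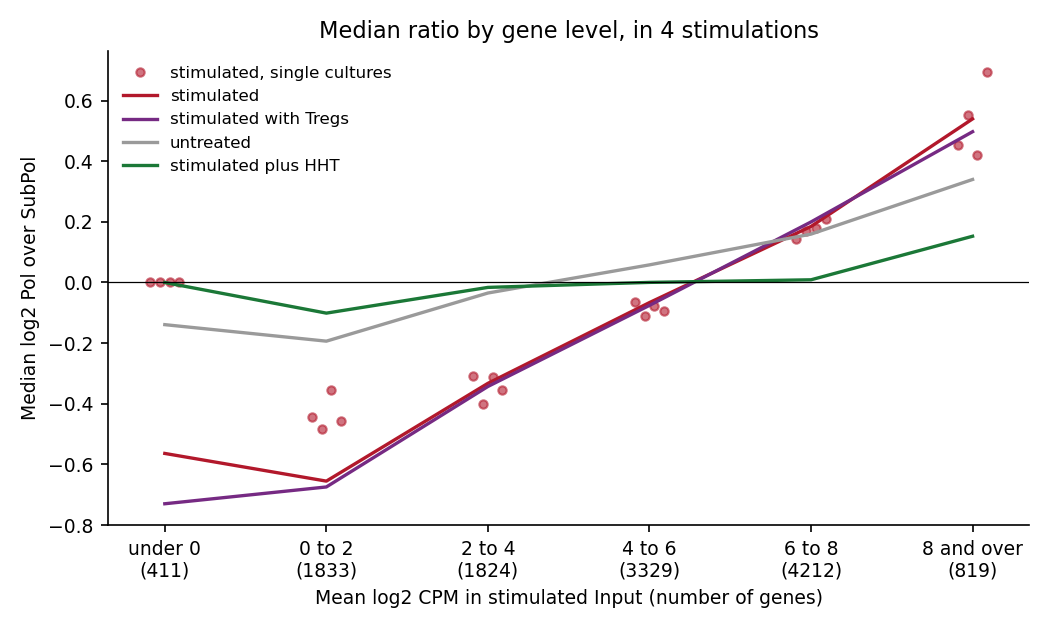
Lines give the median log2 Pol over SubPol of genes in 6 classes of level in stimulated Input, in 4 stimulations, and points give the medians of the 4 stimulated cultures. Stimulated cells with and without Tregs run together from about the same low to the same high value, 0.50 and 0.54 in the top class, against 0.34 in untreated cells and 0.15 after HHT.

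The RiboTag assay gave another measure of ribosome association in stimulated cells, from 5 other mice. RNA precipitated with tagged ribosomes (IP) was compared with the Input of the same culture, and 466 of 10751 genes were higher in IP (4.33%) and 383 lower (3.56%), none and 78 of them by at least 2-fold (edgeR, n = 5 cultures). Over all 10691 genes tested in both assays, 3056 were higher in Pol than in SubPol and 2647 lower. Of the 466 genes, 392 were higher in Pol than in SubPol (84.1%) and 12 lower, and their median log2 Pol over SubPol was 0.80. Of the 383 genes, 217 lay lower (56.7%) and 32 higher in that ratio, and the median was -0.68. They make up 12.8% of the higher and 8.2% of the lower genes of Pol over SubPol that were tested in both assays. Over 6899 well measured genes in both, the ratios correlated with r = 0.368 and a slope of 0.14. IP over Input and Pol over SubPol are unlike ratios, since Input contains the precipitated RNA, so the slope does not compare the methods. With library totals 194 genes were higher and 460 lower in IP. The balance of directions held with the size factors of DESeq2 (378 higher and 385 lower) and in DESeq2 itself (399 and 399). It was lost in other fits: without the culture as a block 22 genes were higher and 83 lower. Without mouse 1 to 5 the higher genes were 188, 41, 193, 45 and 103 and the lower genes 277, 150, 314, 153 and 202. The share of 84.1% was computed for the fit with the block only.

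Of the 4 genes, both at the low end passed the test in RiboTag and neither at the high end did. ENSMUSG00000097769 had 50.6 ± 10.3 CPM in RiboTag Input and 20.6 ± 6.46 CPM in IP (SD, n = 5), a log2 ratio of -1.33 (adjusted p = 0.000331 in edgeR). ENSMUSG00000085438 had a log2 ratio of -1.24 (adjusted p = 2.31e-05 in edgeR), with IP at 53.3 to 72.7 CPM and Input at 117 to 183 CPM, with no overlap. ENSMUSG00000017390 (0.38, SE 0.25, adjusted p = 0.388) and ENSMUSG00000030872 (0.33, SE 0.14, adjusted p = 0.140) had ratios above 0 that did not pass edgeR's test.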

How the data were processed

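The authors deposited whole-number read counts per gene, 1 table per assay with 53465 Ensembl identifiers, on GRCm38, with HTSeq 0.4.1, Picard 1.134, FastQC 0.11.3 and SAMtools 1.2, per the submitters' processing notes. The aligner is not given in the sources used here. Libraries were made with SMART-Seq v4 and NexteraXT, per the labels. These kits do not mark strand, so reads of a gene and of its antisense partner were not separated. A further 16 RiboTag columns matched no sample and were not used. Of 2 libraries titled HHT Input of mouse 1, the later was left out.

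The test was edgeR 4.0.16 in R 4.3.3 (filterByExpr, minimum count 10 and total 15; TMM; robust quasi-likelihood fit; two-sided; Benjamini-Hochberg over all genes at 0.05). The fit held 44 SPEED libraries, with the culture as a block and each fraction within each stimulation (21 residual degrees of freedom, biological coefficient of variation 0.183). RiboTag, 30 libraries, was fitted likewise (12 and 0.121). Differences between stimulations were interactions in these fits. SE is the log2 change over the square root of F. Log2 CPM used a prior count of 2. DESeq2 1.42.0 was an alternative.

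Per the labels, libraries that share a number come from 1 mouse, which pairs them. Deviations of Pol and SubPol from their group means correlated within a mouse with r from 0.05 to 0.16, and 3 of 4 Pol libraries correlated best with their own number. For Pol and Input these were -0.04 to 0.06 and 1 of 4, so the pairing rests on the labels.

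Members, tests and lists were chosen with earlier results of these data known. The planned gene lists, cell type markers, gene types, protein lengths and sequences need gene names and were not tested. The named genes are the 2 highest and the 2 lowest ratios among well measured genes past the test with 1 sign in 4 cultures (2629 higher, 1784 lower). Counts were also simulated, with changes placed in a small set of genes at higher levels and none in the others. For stimulated Pol over SubPol (12305 genes) 98% of 2-fold and 70% of 1.5-fold changes were recovered, with 3.45% of calls false. For the difference from untreated cells (12313 genes) 76% and 26% were recovered. Recovery was not tested for genes below the well measured level, whose median SE was 0.56 against 0.14 above it. In the data 5906 of 12428 genes passed, so the false share of the simulation does not carry over.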

Additional observations from a re-analysis of the deposited data

Results flagged for a closer look

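In 41 groups of 4 values examined for a member far from the other 3, by Dixon's criterion, 2 had one, and chance alone marks about 1 in 20 groups. ENSMUSG00000017390 stood at 157 CPM in the stimulated Pol library of mouse 4, against 98.2 to 105 in the others. Its SubPol level was also highest in that mouse, at 34.1 CPM, and its log2 ratio there was 2.18, inside the range of the other cultures. The untreated culture of mouse 3 had the lowest difference between level classes, 0.16 against 0.33 to 0.36, and is the culture whose SubPol library had 12851 genes detected.

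Differences between stimulations under the same ratio passed edgeR's interaction test for 710 genes between stimulated and untreated cells and for 3328 between HHT and stimulated cells. For ENSMUSG00000085438 stimulated minus untreated was -0.79. HHT minus stimulated was -1.65 for ENSMUSG00000017390, -1.78 for ENSMUSG00000030872, 1.61 for ENSMUSG00000097769 and 2.12 for ENSMUSG00000085438. These genes were chosen as extremes of the stimulated ratio, which favours differences in these directions.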

How the results depend on the processing

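The count of stimulated Pol over SubPol stayed within 1.5 times under all 13 alternatives (4908 to 6287 genes), as did the higher (2383 to 3210) and lower genes (2256 to 3567), and the 4 named genes kept their direction and an adjusted p under 0.05. Without the replicate block it was 5642, with 2899 of the higher and 2619 of the lower genes kept. The difference from untreated cells went from 710 to 323 without the block and 1283 with DESeq2, and to 186 to 619 with a mouse left out. The difference after HHT was 2012 to 2889 with a mouse left out. Pol over Input went from 1505 to 716 with only these groups fitted and to 495 to 1851 with a mouse left out. IP over Input went from 849 to 105 without the block, 250 with the mouse as the block, and 191 to 507 with a mouse left out. Without the block the 4 named genes kept every call of the 6 comparisons but 1: ENSMUSG00000017390 in Pol over Input (0.70, adjusted p = 0.15 in edgeR, against 0.69 and 0.0475). That call held in only 5 of 12 alternatives, with an adjusted p of up to 0.211 in edgeR. The median of the class from 0 to 2 was -0.45 at a minimum count of 50 and -0.95 with only these groups fitted. The causes were not tested. Thinning (5597 genes), DESeq2 for Tregs the fit without the untreated culture of mouse 3 and the alternatives of the named genes in other comparisons were chosen after seeing the data. Depth limits genes below a log2 CPM of 5, in which 385 were higher and 995 lower of 5528. Fractions are shares of a library, so total RNA on polysomes is not measured. P-values of the main fits use a spread pooled over all fitted libraries of an assay, with the level of each culture taken out. Cultures of 1 mouse enter as separate blocks. The cultures compared come from 4 mice, 3 after HHT and 5 in RiboTag.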
